A study of Mus musculus with 5 samples.

Results

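Among the stromal cells of advanced mouse pancreatic tumours, one population was marked by Serpinb2, Cryab and Ndufa4l2. Its members were chosen from the measured values themselves. A cell was taken when Serpinb2, Cryab and Ndufa4l2 together held at least 10 of every 10000 of its unique molecular identifiers (UMIs, the tags that count single transcripts) and Timp3 and Ptgis together held at least 5. Cells were left out when genes of other cell types reached a summed limit per 10000. These were 5 for dedifferentiated tumour cells (Cdkn2a and Hmga2), 4 for epithelium (Epcam, Cldn4 and Cldn7), 3 for mesothelium (Upk3b, Lrrn4, Upk1b and Nkain4), 5 for pericytes (Rgs5) and 2 for endothelium (Pecam1 and Cdh5). By this rule 1131 of 17771 cells were members. They are called Serpinb2/Cryab/Ndufa4l2 cells. Serpinb2 encodes plasminogen activator inhibitor 2, Cryab the small heat shock protein alpha-B crystallin, and Ndufa4l2 a mitochondrial protein that is a known target of the hypoxia-inducible factor HIF1. Timp3 encodes an inhibitor of matrix metalloproteinases and Ptgis prostacyclin synthase. Because these genes chose the cells, their levels and every comparison of the members with other cells are descriptions and carry no test.

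As background, pancreatic carcinoma grows within a dense stroma of fibroblasts and is poorly perfused, so that its cells often face low oxygen. Under low oxygen the HIF factors escape the prolyl hydroxylases encoded by the Egln genes, bind short response elements near their targets and raise genes of glucose uptake, glycolysis, lactate export and vessel growth. Fibroblasts of such tumours are commonly divided into contractile myofibroblasts, inflammatory cells rich in cytokines and acute-phase proteins, and adventitial cells.

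The study compared tumours of KPPCN mice with those of KPPC mice, both killed at 7 to 8 weeks of age. The labels give the genotypes by these names. As background on the model, both carry a pancreas-directed Cre recombinase that deletes Trp53 in the epithelial lineage, and KPPCN mice also lose Nsdhl there, an enzyme of late cholesterol synthesis; stromal cells are not the target of this Cre. Dissociated tumours were freed of dead cells and depleted of CD45-positive blood cells, and about 6000 cells per library were loaded for droplet sequencing of transcript 3′ ends. The libraries analysed here were KPPCN 1 and KPPCN 2, and KPPC C3, D3 and H2, each taken as 1 tumour, so that p-values measure the spread between these 5 libraries. The labels speak of 3 mice per genotype, and a further KPPCN tumour is not analysed here.

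The libraries held 6111 and 2086 cells in KPPCN, against 3777, 3282 and 2515 cells in KPPC. KPPCN 1 stood apart in depth, with a median of 2006 UMIs per cell against 20904 in KPPCN 2 and 17391 to 19052 in the KPPC libraries. KPPC C3 and D3 held 45783 and 51514 UMIs of Xist, the RNA of the inactive X chromosome, whereas KPPCN 1, KPPCN 2 and KPPC H2 held 1, 3 and 0 and instead 1510, 3189 and 3192 UMIs of the Y-linked Ddx3y. Genotype and sex therefore overlapped in part. KPPC H2 alone among the KPPC libraries matched the KPPCN libraries in these genes, and with this lone library genotype and sex cannot be told apart. For KPPC, 1166 of the 12579 genes listed for both genotypes had no UMI in any cell of at least 1 KPPC library, and a KPPCN excess of such a gene cannot be read. Across libraries 54 cells shared a barcode, 3 of them members, with no pair of members among them.

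The members numbered 133 in KPPCN 1 and 126 in KPPCN 2, against 163 in KPPC C3, 551 in KPPC D3 and 158 in KPPC H2. They were deeper than the average cell, with a median of 12624 and 21613 UMIs in KPPCN, against 22957, 25040 and 24795.5 UMIs in KPPC. Beside them stood 4916 other fibroblasts, which passed the same exclusions, missed the inclusion and held Dcn at 10 or more per 10000, and 1531 mesothelial cells chosen by Upk3b, Lrrn4, Upk1b and Nkain4. Pericytes and smooth muscle cells, chosen by Rgs5, numbered 60 and came from KPPC libraries alone. At the edge of the rule lay 124 members with 10 to under 12 of the 3 genes per 10000, while 183 cells with 8 to under 10 were just outside. Cryab stood at 429 CPM (UMIs of a gene per 1000000 UMIs) just inside and 376 CPM just outside, and Ndufa4l2 at 318 and 251 CPM. These are rule genes, so their levels on either side followed from the cut. Of genes outside the rule, Il33 stood at 270 CPM just inside and 295 CPM just outside, and Rasl11a at 105 CPM on both sides. Acta2 stood at 1510 and 1169 CPM and Saa3 at 9113 and 8073 CPM. Whether the members form a group apart from the cells just outside was not tested.

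Serpinb2 was the most variable of the 3 genes between libraries. It stood at 482 CPM in KPPCN 1 and 713 in KPPCN 2, against 1451 in KPPC C3, 1892 in KPPC D3 and 1209 in KPPC H2, the library order used for all values. Cryab was even, with 1151 and 1393 CPM in KPPCN, against 978, 1204 and 1050 in KPPC. Ndufa4l2 reached 856 and 874 CPM in KPPCN, against 521, 611 and 430 in KPPC. So the genotypes did not overlap for Serpinb2, which was lower in KPPCN, nor for Ndufa4l2, which was higher in KPPCN, while they overlapped for Cryab. These genes chose the cells by their sum, so a member low in Serpinb2 had to reach it through Cryab or Ndufa4l2. The shifts are thus coupled by the rule and are descriptions. Of 11070 genes tested in the members, 15.3% were higher and 15.5% lower in KPPCN without overlap. In other fibroblasts Cryab lay between 129 and 161 CPM in every library. Most members held more than 1 of the 3 genes: at least 2 were detected in 73.7% and 92.9% of members in KPPCN, against 84.0%, 95.3% and 90.5% in KPPC.

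Mesothelial cells shared part of this profile. Their Cryab was 461 and 1018 CPM in KPPCN, against 609, 476 and 585 in KPPC, and Ptgis was higher there than in the members in each library. Ndufa4l2 separated the members from them more clearly, since mesothelial cells held 56.4 and 165 CPM in KPPCN, against 27.4, 96.4 and 48.2 in KPPC. Pericytes, a known site of Ndufa4l2, held 493 CPM of it in KPPC D3, the library with enough of these cells to sum. Cryab overlaps Hspb2, a second small heat shock protein gene on the opposite strand, at chr9:50751325-50756636 (Cryab, plus strand) and chr9:50751078-50752354 (Hspb2, minus strand, GRCm38). How the authors' counting treated strand is not given in the sources used here, and reads in the overlap are uncertain.

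**Figure D1:**
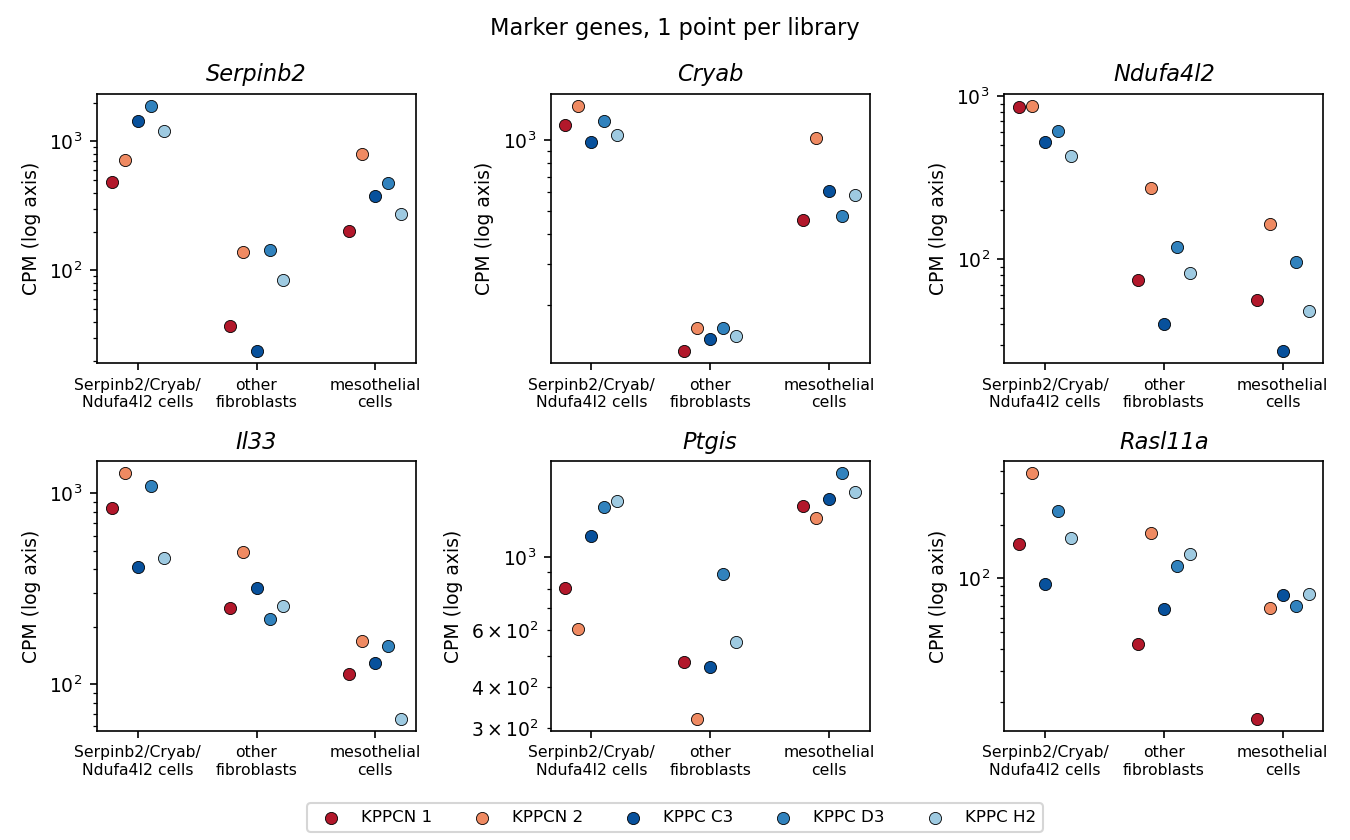
CPM (log axes) of the 6 marker genes in Serpinb2/Cryab/Ndufa4l2 cells, other fibroblasts and mesothelial cells, 1 point per library, KPPCN in red shades and KPPC in blue shades. Cryab of the members lies between 978 and 1393 CPM, and that of other fibroblasts between 129 and 161 CPM.

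Il33 and Rasl11a had been named as markers but were not part of the rule. Il33, which encodes a nuclear alarmin cytokine, stood at 840 and 1275 CPM in KPPCN members, against 409, 1098 and 457 CPM in KPPC members. In other fibroblasts it was 252 and 493 CPM in KPPCN, against 320, 220 and 256 in KPPC. The members thus lay above other fibroblasts in all 5 libraries, by the smallest margin in KPPC C3, where fewer members than other fibroblasts held an Il33 UMI (70.6% against 76.1%, at median depths of 22957 and 17888 UMIs). Rasl11a, a small GTPase of the Ras family, was 156 and 390 CPM in KPPCN members, against 93.2, 238 and 168 CPM in KPPC members. Other fibroblasts held 42.4 and 179 CPM of it in KPPCN, against 66.9, 117 and 136 CPM in KPPC, so that the margin was smallest in KPPC C3 and H2.

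Fibroblast markers were high in the cells, though most were lower than in the other fibroblasts. Col1a1, a fibrillar collagen, stood at 6335 and 9914 CPM in KPPCN members, against 5387, 3845 and 4117 CPM in KPPC members, above the mesothelial cells and below the other fibroblasts in each library. Of the 10 fibroblast markers, 9 were lower in the members than in other fibroblasts in all 5 libraries, and the remaining one, vimentin, was higher. Rgs5 (at most 3.03 CPM) and Upk3b were low because the rule excluded them. The 7 measured pericyte and smooth muscle markers summed to 522 and 197 CPM in KPPCN members, against 214, 278 and 284 CPM in KPPC members, more than in other fibroblasts of each library (132 and 73.7 CPM in KPPCN, against 156, 241 and 176 in KPPC). The 8 endothelial markers were low in both but also higher in the members, with 49.6 and 45.2 CPM in KPPCN members, against 50.4, 56.9 and 63.3 CPM in KPPC members, and 19.1 to 49.0 CPM in other fibroblasts. The 10 epithelial markers summed to 498 and 285 CPM in KPPCN members, against 579, 793 and 822 CPM in KPPC members, and these sums were larger than in other fibroblasts of the same libraries. Ptprc, the gene of the CD45 protein by which blood cells had been depleted, had a UMI in 38 members of KPPCN 1 (28.6%) and in 1 member of KPPCN 2; it is not listed for KPPC. The 10 leukocyte markers listed for KPPCN summed to 288 and 448 CPM in its members, against 249.1 and 32.6 CPM in its other fibroblasts; the 3 of them also listed for KPPC summed to 168 and 440 CPM in KPPCN members, against 30.6, 69.8 and 30.0 CPM in KPPC members. No doublet caller was run, so pairs of cells may remain.

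Hypoxia and glycolysis genes led the ranking of the members over other fibroblasts. The rule gene Ndufa4l2 is itself a HIF target, so this profile is not independent of the choice of cells. Of 2120 genes at 50 CPM or more in the members of every library, the highest ratios to other fibroblasts belonged to Inhba, Ero1l, Egln3, Fam162a, Bnip3, Slc16a3, Slc2a1, Higd1a, Egln1, Eno1, Gapdh, Vegfa, Hspb2, Map2k1 and Pgk1, ranked by the lowest of the 5 libraries. Most are known to answer to low oxygen. Inhba, which encodes the subunit of activin A, led the rank with 1163 and 712 CPM in KPPCN members, against 479, 724 and 412 CPM in KPPC members. Its ratio to other fibroblasts was 15.3 and 6.26 in KPPCN, against 5.59, 5.0 and 4.78 in KPPC. Gapdh, Eno1 and Pgk1 have near-identical pseudogene copies, so part of their reads may be counted elsewhere. Ero1l, an oxidase of protein folding in the endoplasmic reticulum, had ratios of 3.84 and 5.74 in KPPCN, against 6.38, 6.28 and 5.82 in KPPC.

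Genes of the oxygen sensor itself were among them. Egln3, a prolyl hydroxylase of HIF, reached 96.7 and 206 CPM in KPPCN members, against 141, 263 and 190 CPM in KPPC members. Other fibroblasts held 10.6 and 41.2 CPM of Egln3 in KPPCN, against 10.7, 69.5 and 44.5 CPM in KPPC. Its relative Egln1 had ratios of 2.91 and 2.61 in KPPCN, against 3.37, 2.93 and 2.76 in KPPC. Car9, the carbonic anhydrase that buffers acid at the surface of hypoxic cells, was 42.7 and 133 CPM in KPPCN members, against 34.4, 96.5 and 45.6 CPM in KPPC members, where other fibroblasts held 0.840 and 10.9 CPM in KPPCN and 3.19, 9.52 and 4.07 CPM in KPPC. Its log2 ratio was the largest of the list in every library but KPPC C3, where Egln3 led, on the log2(CPM + 5) scale.

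Sugar and lactate transport followed. Slc2a1, the glucose transporter GLUT1, was 129 and 299 CPM in KPPCN members, against 171, 233 and 159 CPM in KPPC members, with ratios to other fibroblasts of 4.49 and 3.20 in KPPCN, against 5.25, 4.05 and 4.26 in KPPC. Slc16a3, the lactate exporter MCT4, had ratios of 8.89 and 3.24 in KPPCN, against 7.26, 4.40 and 5.64 in KPPC. The glycolytic enzyme gene Pgk1 stood at 881 and 984 CPM in KPPCN members, against 801, 1137 and 1273 CPM in KPPC members. Vegfa, the main growth factor of vessels, was 286 and 447 CPM in KPPCN members, against 267, 258 and 191 CPM in KPPC members, and at most 159 CPM in other fibroblasts of any library.

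Of 23 measured genes of a hypoxia and glycolysis list, with the rule gene Ndufa4l2 left out, 21 lay above other fibroblasts in all 5 libraries, where 14.7% of 9733 genes did. Their median log2 ratio was 1.73 and 1.28 in KPPCN, against 1.66, 1.38 and 1.48 in KPPC, and the median of all genes was between -0.14 and -0.04. The 2 exceptions were Hk2, a hexokinase that lay below other fibroblasts in each library, and Adm, the gene of adrenomedullin, whose ratio lay on both sides of 0. Against mesothelial cells 22 of the 23 were higher in all 5 libraries, where 11.4% of 9822 genes were. In the 228 members without a Ndufa4l2 UMI, 0 of the 23 genes lay above other fibroblasts in all 5 libraries. This split is by a rule gene that is itself a HIF target, and it leaves 9 cells in KPPCN 2, so the count is a description. The share of all genes that did so was not counted for these 228 cells. The median log2 ratio of these cells was 0.37 and -0.58 in KPPCN, against 0.55, -0.08 and 0.25 in KPPC. Bnip3, which drives removal of mitochondria, was 33.0 and 50.6 CPM in members without a Ndufa4l2 UMI in KPPCN, against 63.2, 58.1 and 36.2 in KPPC, and 165 to 359 CPM in those with one in any library. Egln3 remained above other fibroblasts in KPPC members without one, at 75.9, 111 and 159 CPM, and Inhba was higher without (465 CPM) than with one (389 CPM) in KPPC H2. The members without a Ndufa4l2 UMI had a median of 4515 UMIs in KPPCN 1, but 23484 UMIs in KPPCN 2 and 21293 to 30590.5 UMIs in the KPPC libraries.

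**Figure D2:**
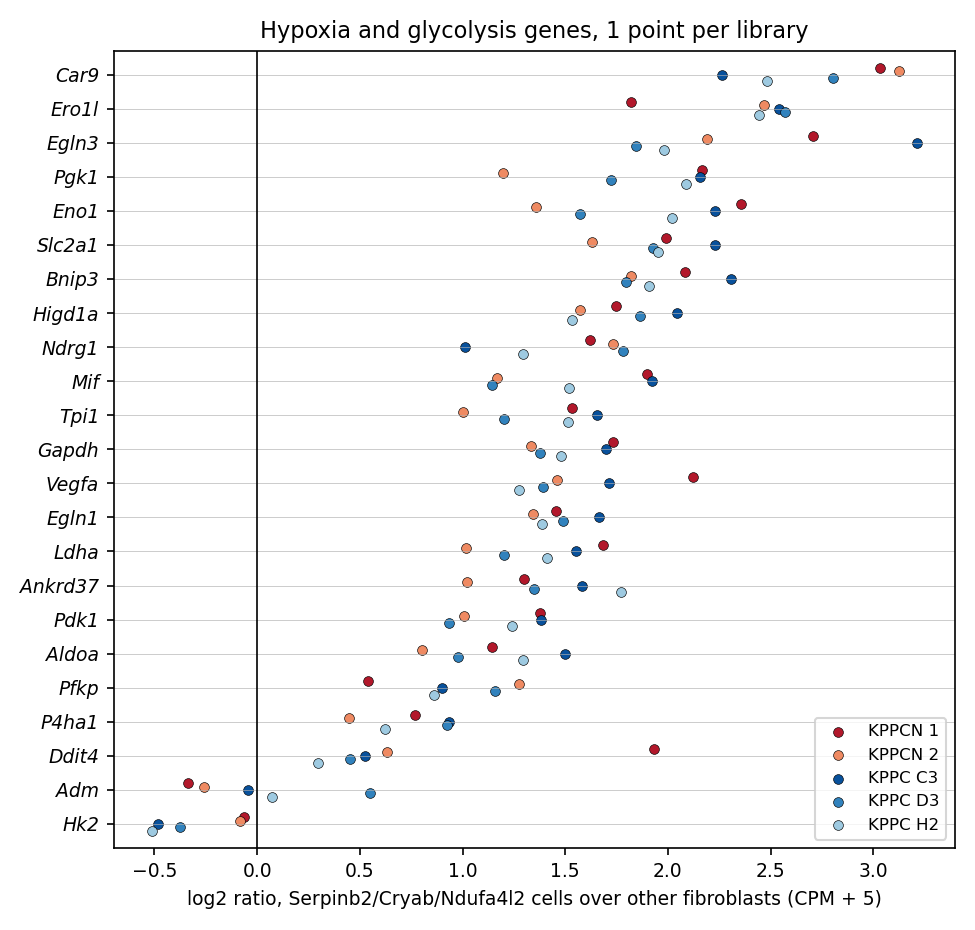
Log2 ratio of Serpinb2/Cryab/Ndufa4l2 cells over other fibroblasts on the log2(CPM + 5) scale for the 23 genes of the hypoxia and glycolysis list, 1 point per library, KPPCN in red shades and KPPC in blue shades. All points of 21 genes lie right of 0; those of Hk2 lie left of 0 and those of Adm on both sides.

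The core letters of the hypoxia response element, ACGTG, were looked for on both strands in promoter windows of 300 bases (250 before to 50 after the annotated start, RefSeq, GRCm38.p6). They occurred in 16 of the 21 list genes found in that table (76.2%), against 21.8% of 27025 gene symbols, and in 10 of 13 leading genes found there (76.9%). The core of the heat shock element, GAANNTTC, occurred in 0 of these 21 and 0 of these 13, against 9.04% of symbols. Such matches are descriptions of the letters. The promoters of 4 of these 10 leading genes are printed as examples: Bnip3, Slc16a3, Slc2a1 and Pgk1, ranked 5, 6, 7 and 15. The capitals are the ACGTG match on either strand, where a run of CACGTG or CACGT holds the match on the opposite strand. The promoter of Serpinb2 is printed as a marker gene with neither core in its window. Cryab, Ndufa4l2 and Ptgis were not in the table. The windows are chr7:138909457-138909756 on the minus strand (Bnip3), chr11:120948817-120949116 on the plus strand (Slc16a3), chrX:106186850-106187149 on the plus strand (Pgk1), chr4:119108495-119108794 on the plus strand (Slc2a1) and chr1:107511173-107511472 on the plus strand (Serpinb2).
Bnip3: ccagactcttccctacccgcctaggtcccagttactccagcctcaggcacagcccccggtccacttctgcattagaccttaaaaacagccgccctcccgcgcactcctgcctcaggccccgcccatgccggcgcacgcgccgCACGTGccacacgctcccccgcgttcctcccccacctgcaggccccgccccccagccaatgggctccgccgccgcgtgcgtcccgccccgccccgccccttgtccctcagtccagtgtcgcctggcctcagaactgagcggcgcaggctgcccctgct
Slc16a3: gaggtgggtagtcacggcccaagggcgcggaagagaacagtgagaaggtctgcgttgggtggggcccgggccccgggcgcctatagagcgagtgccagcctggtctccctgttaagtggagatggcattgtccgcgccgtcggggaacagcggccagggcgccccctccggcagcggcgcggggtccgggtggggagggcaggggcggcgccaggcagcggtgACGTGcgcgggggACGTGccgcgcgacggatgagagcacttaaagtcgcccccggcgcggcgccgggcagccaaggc
Pgk1: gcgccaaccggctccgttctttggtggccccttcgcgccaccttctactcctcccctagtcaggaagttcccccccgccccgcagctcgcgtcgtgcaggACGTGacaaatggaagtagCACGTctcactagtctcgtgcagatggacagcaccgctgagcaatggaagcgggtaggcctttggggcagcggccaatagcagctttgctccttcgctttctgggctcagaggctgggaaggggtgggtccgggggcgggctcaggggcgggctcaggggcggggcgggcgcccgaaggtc
Slc2a1: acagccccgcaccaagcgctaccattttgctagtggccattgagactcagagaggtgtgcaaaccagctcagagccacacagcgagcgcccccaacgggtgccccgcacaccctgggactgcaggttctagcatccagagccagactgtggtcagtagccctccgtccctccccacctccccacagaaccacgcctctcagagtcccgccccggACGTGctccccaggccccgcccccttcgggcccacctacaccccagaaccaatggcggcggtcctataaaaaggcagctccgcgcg
Serpinb2: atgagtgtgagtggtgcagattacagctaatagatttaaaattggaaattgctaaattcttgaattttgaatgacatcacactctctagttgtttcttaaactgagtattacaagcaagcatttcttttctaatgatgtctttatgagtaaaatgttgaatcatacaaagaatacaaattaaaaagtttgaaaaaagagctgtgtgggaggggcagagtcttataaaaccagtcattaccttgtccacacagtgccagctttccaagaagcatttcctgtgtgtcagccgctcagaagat
In Bnip3 the 2 matches overlap as a palindrome about 108 bases before the start, and in Slc16a3 and Pgk1 they stand apart.

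The families of the marker genes themselves did not move as blocks. Of 13 small heat shock proteins and chaperones other than Cryab, 5 lay above other fibroblasts in all 5 libraries and 4 below, where 14.7% and 27.4% of all genes did. Hspb1, the small heat shock protein HSP27, was 2330 and 1200 CPM in KPPCN members, against 2005, 1674 and 1816 CPM in KPPC members. Other fibroblasts held 1392 and 972 CPM of it in KPPCN, against 1160, 1591 and 1136 CPM in KPPC. Hspa1b lay below other fibroblasts in each library.

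Of 10 genes of the plasminogen system, serpins and TIMPs, 3 lay above other fibroblasts in all 5 libraries and 3 below, where 14.7% and 27.4% of all genes did, so that the lower count was near the background. Plaur, the urokinase receptor, was 108 and 45.2 CPM in KPPCN members, against 68.2, 79.8 and 88.7 CPM in KPPC members. It exceeded other fibroblasts of the same library throughout. So did Timp1, a secreted inhibitor of metalloproteinases, at 9318 and 8130 CPM in KPPCN members, against 6037, 8825 and 5905 CPM in KPPC members, where other fibroblasts held 1984 to 3628 CPM. Of 8 prostaglandin enzymes and receptors 3 were higher and 1 lower, beside the same shares. Ptgs2, the inducible cyclooxygenase, was 184 and 379 CPM in KPPCN members, against 263, 316 and 109 CPM in KPPC members, above other fibroblasts in each library.

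Other gene lists ran lower in the members. Of 11 adventitial fibroblast genes 10 lay below other fibroblasts in all 5 libraries, and of 9 complement genes 8 did, where 27.4% of all genes did. Pi16, a marker of adventitial fibroblasts, was 95.7 and 32.8 CPM in KPPCN members, against 73.8, 4.41 and 17.7 CPM in KPPC members, and between 181 and 618 CPM in other fibroblasts. The gene C3, which encodes the central complement protein, was 1730 and 1576 CPM in KPPCN members, against 1712, 1086 and 1757 CPM in KPPC members, and at least 2728 CPM in other fibroblasts of every library. Of 23 fibrillar matrix genes 13 were lower in all 5 libraries and 0 were higher. Contractile genes ran the other way, with 7 of 13 higher in all 5 libraries and 0 lower, where 14.7% and 27.4% of all genes were. Acta2, the actin of smooth muscle and myofibroblasts, stood at 2112 and 988 CPM in KPPCN members, against 1270, 696 and 1382 CPM in KPPC members, and between 338 and 662 CPM in other fibroblasts. It was not high in all members: in the Serpinb2-led members described below it was 60.5 to 308 CPM.

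The members were not uniform. Each was assigned to the rule gene with the highest level in it, which gave 510 Serpinb2-led cells, 368 Cryab-led cells and 253 Ndufa4l2-led cells. Cells in which Serpinb2 tied with another rule gene for the highest level were counted as Serpinb2-led. Such ties occurred in both KPPCN libraries and also in KPPC. Shares without tied cells were not computed, so the closeness of the KPPCN shares may rest on this choice. Serpinb2-led cells made up 23.3% and 23.8% of the members in KPPCN, against 43.6%, 56.4% and 42.4% in KPPC. The mean was 23.6% ± 0.354 in KPPCN (SD, n = 2) and 47.5% ± 7.79 in KPPC (SD, n = 3), with no overlap. The split was made after the data had been seen and uses the rule genes, so no test of these shares is given. In the share of each library's members that were Ndufa4l2-led the order was the opposite, with 32.3% and 40.5% in KPPCN, against 22.7%, 15.2% and 24.1% in KPPC.

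Serpinb2-led cells were set apart by Saa3, Cxcl5 and Cxcl13, picked after their values were seen. Of 18 stromal cytokine genes 5 were higher in Serpinb2-led cells in all 5 libraries and 1 was lower, where 10.9% and 12.9% of 9523 genes were. Saa3, the serum amyloid A of fibroblasts and other non-liver cells, stood at 20288 and 8177 CPM in KPPCN and 13879, 12430 and 10396 CPM in KPPC in these cells. In the other members it was 922 and 2172 CPM in KPPCN, against 3031, 3614 and 3101 in KPPC. Cxcl5, a chemokine that draws neutrophils, was 114 and 66.9 CPM in Serpinb2-led cells of KPPCN, against 153, 206 and 186 CPM in those of KPPC, and at most 33.0 CPM in the other members of any library. Cxcl13, a chemokine that draws B cells, was higher in Serpinb2-led cells in each library but varied widely, from 10.1 CPM in KPPCN 2 to 2116 CPM in KPPCN 1, with 1188, 662 and 1767 CPM in KPPC. Trf, which encodes transferrin, Steap4, a metalloreductase, Sod2, the mitochondrial superoxide dismutase, and Apoe, a lipid carrier, were also higher there in all 5 libraries, while of 15 antioxidant and metallothionein genes 1 was. Of 9 complement genes 5 were higher in all 5 libraries and 0 lower.

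The Cryab-led and Ndufa4l2-led cells held the contractile and matrix genes. Acta2 was 60.5 and 217 CPM in Serpinb2-led cells of KPPCN, against 115, 308 and 167 CPM in those of KPPC, while the other members held 2463 and 1278 CPM in KPPCN, against 2245, 1238 and 2597 in KPPC. The groups did not overlap. Of 13 contractile genes 10 were lower in Serpinb2-led cells in all 5 libraries, and of 23 fibrillar matrix genes 19, where 12.9% of all genes were. Col8a1, a short-chain collagen, Pgf, a growth factor of the VEGF family, Serpine2, an inhibitor of thrombin and plasminogen activators, Ctgf, a matricellular protein, and the chemokine Cxcl14 were lower there as well. Of the 24 hypoxia and glycolysis genes, Ndufa4l2 included, 13 were lower in Serpinb2-led cells in all 5 libraries. Even so 19 of 23 still lay above other fibroblasts when Serpinb2-led cells alone were taken. The share of all genes was not counted for that comparison. In KPPCN 1 the Serpinb2-led cells were the shallowest, with a median of 4779 UMIs against 14510 UMIs in its Cryab-led cells.

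**Figure D3:**
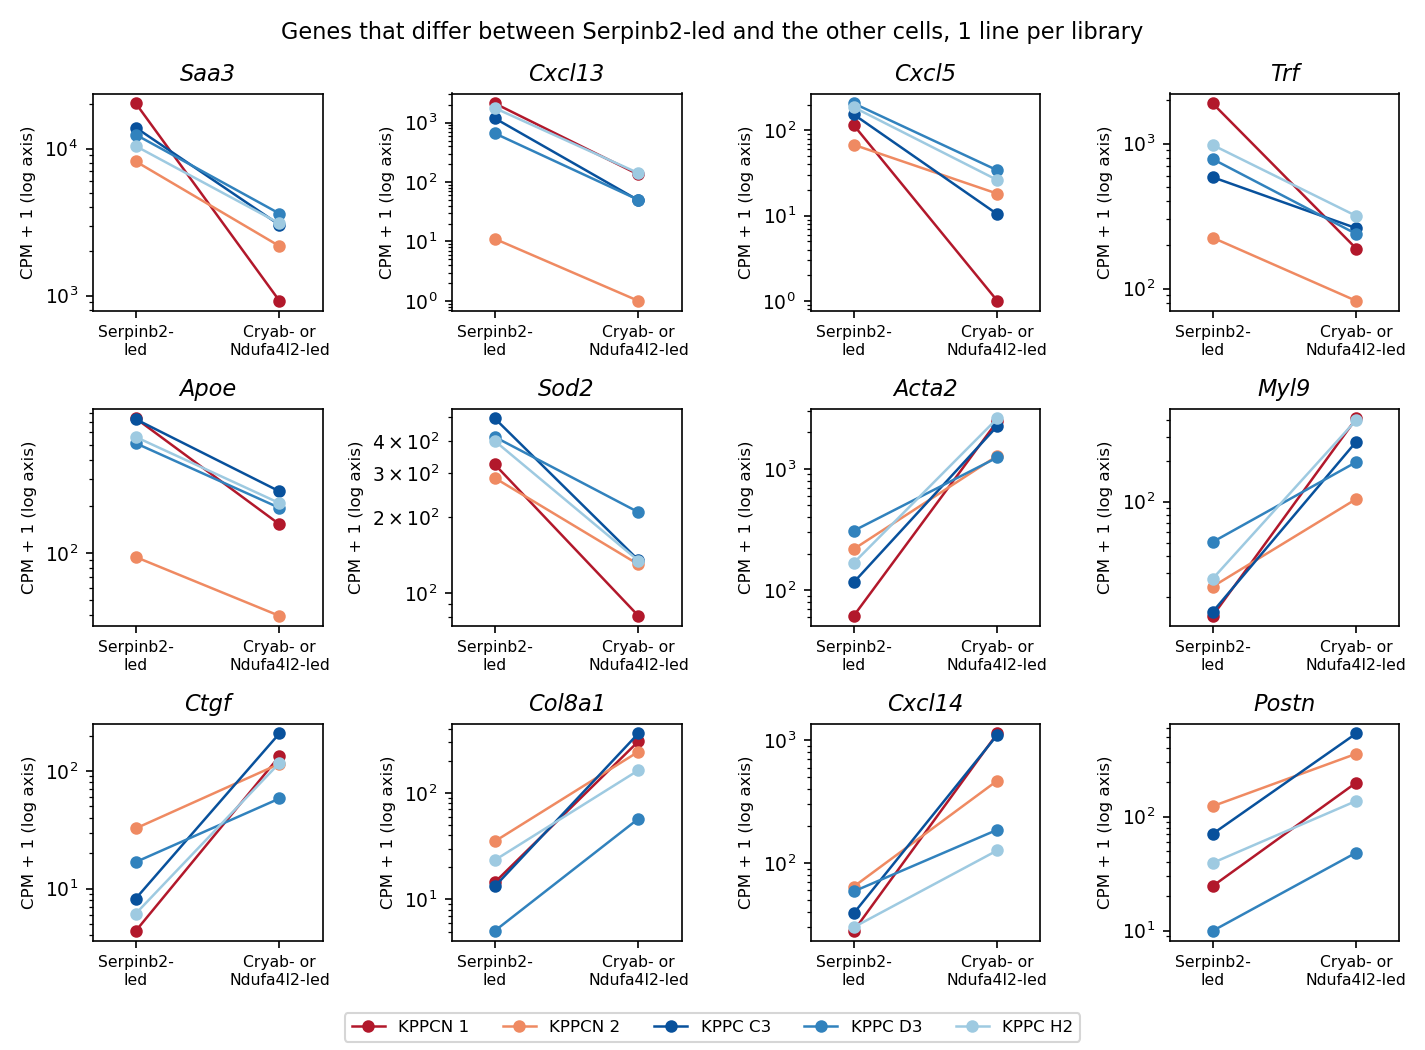
CPM plus 1 (log axes) of 12 genes in Serpinb2-led cells (left) and in the Cryab-led and Ndufa4l2-led cells (right), 1 line per library. Saa3, Cxcl13, Cxcl5, Trf, Apoe and Sod2 are higher in Serpinb2-led cells in all 5 libraries, and Acta2, Myl9, Ctgf, Col8a1, Cxcl14 and Postn are lower in all 5.

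The abundance of the Serpinb2/Cryab/Ndufa4l2 cells did not separate the genotypes. They made up 2.18% of all cells in KPPCN 1 (exact 95% binomial interval 1.83 to 2.57) and 6.04% in KPPCN 2 (5.06 to 7.15), against 4.32% in KPPC C3 (3.69 to 5.01), 16.8% in KPPC D3 (15.5 to 18.1) and 6.28% in KPPC H2 (5.37 to 7.30). These intervals cover counting error alone. The mean share was 4.11% ± 2.73 in KPPCN (SD, n = 2) and 9.13% ± 6.71 in KPPC (SD, n = 3), a difference of -5.02 percentage points that was within the spread of the libraries (two-sided exact permutation test, p = 0.5, where the smallest possible p is 0.1). KPPC D3 stood apart, and without it the difference was -1.19 points. With shallow cells left out (under 5000 UMIs, a limit chosen after the data had been seen), both KPPCN libraries had nearly the same share, 6.43% and 6.55%, against 4.79%, 18.2% and 6.79% in KPPC. As a share of all fibroblasts the members spanned 6.84% and 33.4% in KPPCN, against 9.70%, 48.3% and 17.5% in KPPC.

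**Figure D4:**
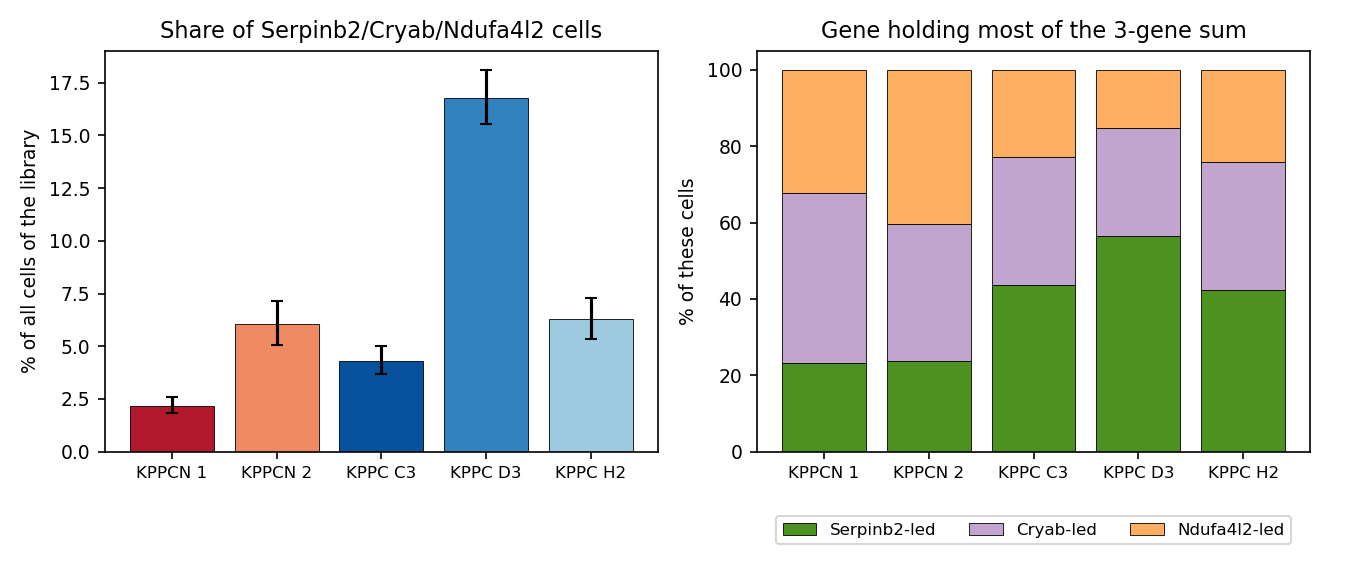
Left, percent of all cells of a library that were Serpinb2/Cryab/Ndufa4l2 cells, with exact 95% binomial intervals; right, percent of these cells led by Serpinb2, Cryab or Ndufa4l2. KPPC D3 has the highest share (16.8%), and Serpinb2-led cells make up 23.3% and 23.8% of the cells in KPPCN, against 42.4 to 56.4% in KPPC.

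Between genotypes the clearest difference within the members was in Csf3, the gene of granulocyte colony-stimulating factor, which drives the production of neutrophils (chr11:98701263-98703629, plus strand, GRCm38). Scaled Csf3 levels were 11.8 and 23.4 CPM in KPPCN, against 143, 147 and 151 in KPPC, from 24 and 68 UMIs in KPPCN and 566, 2235 and 637 UMIs in KPPC. Both KPPCN libraries lay far below all KPPC libraries. The log2 difference was -2.79 ± 0.23 (SE; limma on log2(CPM + 5), Benjamini-Hochberg adjusted p = 0.0388). Of 11070 genes tested it was the one gene called (0.00903%), while 1321 genes had an unadjusted p under 0.05. In the libraries without Xist (both KPPCN libraries and KPPC H2) the log2 difference was -2.83. The call depended on settings: the adjusted p of Csf3 ranged from 0.0002 to 0.0956 over the alternatives other than the split by leading gene, and without KPPC C3 it was 0.0571 and without KPPC H2 0.0781.

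Csf3 was split between the members by leading gene in 4 libraries but not in KPPCN 2. The Serpinb2-led cells include the tied cells, and Csf3 levels without these were not computed. In Serpinb2-led cells it was 42.1 and 23.8 CPM in KPPCN, against 301, 236 and 294 in KPPC, a log2 difference of -2.98 (limma, adjusted p = 0.0145), the one gene called of 9598 (0.0104%). In the other members it was 6.43 and 23.2 CPM in KPPCN, against 17.1, 24.2 and 9.60 in KPPC, with a log2 difference of -0.26 (limma, adjusted p = 0.921) and groups that overlapped. That these differences differ from each other was not tested. The lower Csf3 of KPPCN members thus went with fewer Serpinb2-led cells among them and with a lower level inside those cells. This split was chosen after the data had been seen. It also uses rule genes, of which Serpinb2 and Ndufa4l2 themselves separated the genotypes. The p-values inside the split are therefore given as descriptions and are no further support for the Csf3 difference. In other fibroblasts Csf3 was 15.01 and 20.6 CPM in KPPCN, against 21.8, 144 and 69.8 in KPPC (log2 difference -1.56 ± 0.66, SE; limma, adjusted p = 0.601), and the genotype effect did not differ detectably between the members and these cells (limma on the difference, adjusted p = 0.653).

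Several further genes separated the genotypes without passing the threshold in all 11070 genes. With genes left out that had no UMI in any cell of some library, an alternative chosen after the data had been seen, 7 genes were called in limma: Wdfy1 higher, and Csf3, Dmbt1, Gm14226, Sema3a, Fam213a and Tff2 lower. Wdfy1, an endosomal adaptor of Toll-like receptors, was 67.3 and 76.4 CPM in KPPCN, against 21.5, 14.7 and 16.6 in KPPC (log2 difference 1.79 ± 0.19, SE; limma, adjusted p = 0.0787 in all genes). In other fibroblasts its log2 difference was 1.25 (limma, adjusted p = 0.257). Sema3a, a secreted guidance cue, was 27.5 and 24.8 CPM in KPPCN, against 74.7, 72.1 and 83.8 in KPPC (log2 difference -1.39 ± 0.16, SE; limma, adjusted p = 0.0802). Its level did not overlap between genotypes, and the difference in other fibroblasts was -0.37 ± 0.42 (SE). In the test of the genotype effect in members against that in other fibroblasts, 0 of 11058 genes were called. Neither Wdfy1 nor Sema3a was thus shown to differ in this way.

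Dmbt1 and Tff2 are secreted products of mucosal epithelium. Dmbt1 was 9.34 and 9.64 CPM in KPPCN, against 158, 124 and 66.7 in KPPC, and Tff2 3.44 and 5.85 CPM in KPPCN, against 56.8, 39.5 and 27.5 in KPPC. Other fibroblasts showed differences of similar size, -2.86 for Dmbt1 and -2.69 for Tff2 on the log2 scale, and the genotype effects were not shown to differ (limma on the difference, adjusted p = 0.884 and 0.836). With the exclusion genes of the rule left out, all 7 epithelial markers measured in the members had a log2 difference below 0 (median -0.96), and 4 of them did not overlap between genotypes, where 15.5% of all genes were lower in that way. The part of transcripts from epithelial cells in these differences was not tested.

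Of the other named genes by lowest p, Hspa1b, an inducible heat shock protein, was 252 and 201 CPM in KPPCN, against 77.5, 89.0 and 92.5 in KPPC (limma, adjusted p = 0.133). Its near-identical copy Hspa1a makes the split of reads between them uncertain. Hsph1, a partner of these chaperones, was 61.4 and 66.1 CPM in KPPCN, against 31.3, 34.8 and 32.2 in KPPC, and 5 of 15 genes of the chaperone list were higher without overlap, where 15.3% of all genes were. Nectin1, a cell adhesion molecule, Adamts4, a protease of aggrecan, Rab15, a small GTPase, Fbln7, a fibulin, and Clps, the pancreatic colipase, were higher in KPPCN without overlap and with adjusted p of 0.133 to 0.163 (limma). Fcer1g, a receptor chain of leukocytes, was 23.1 and 11.4 CPM in KPPCN and is listed at 0 in every cell of KPPC D3 and H2. Lyz2, a lysozyme of myeloid cells, was 133 and 12.7 CPM in KPPCN, against 6.31, 7.18 and 4.97 in KPPC (limma, adjusted p = 0.339), and S100a8, of neutrophils, 14.3 and 397 CPM in KPPCN, against 2.27 CPM in KPPC C3 and listed at 0 in KPPC D3 and H2; the part of leukocyte transcripts was not tested. Klf2, a Kruppel-like transcription factor, was 242 and 312 CPM in KPPCN, against 625, 653 and 643 in KPPC (limma, adjusted p = 0.163). Kiz, a centrosome protein, and Epha4, an ephrin receptor, were lower in KPPCN without overlap as well.

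No gene of the lists passed the threshold, so the lists are given by counts. The fibrillar matrix list had 22 of 23 genes above 0 in log2 difference (median 0.68, where all genes had a median of 0.01), 7 higher without overlap and 1 lower, where 15.3% of all genes were higher and 15.5% lower in that way. Fbln2, a fibulin of the matrix, was 2052 and 3005 CPM in KPPCN, against 1181, 1173 and 1098 in KPPC (limma, adjusted p = 0.2). Bgn, the proteoglycan biglycan, was 4131 and 4914 CPM in KPPCN, against 2834, 1699 and 2354 in KPPC. In Serpinb2-led members 21 of the 23 matrix genes were above 0 (median 0.55). Of these 23, 0 were higher and 1 lower without overlap, where 1263 and 1663 of 9598 genes were. In the other members 20 were above 0 (median 0.40), with 3 higher and 1 lower without overlap, where 1143 and 1164 of 10051 genes were. The hypoxia and glycolysis list without Ndufa4l2 had 17 of 23 genes above 0 (median 0.20), with 5 higher without overlap and 0 lower. In Serpinb2-led members 8 of these 23 were above 0, with 0 higher and 5 lower without overlap, and in the other members 13 were. Among TGF-beta ligands and receptors 11 of 15 were above 0 (median 0.49) and 3 were higher without overlap, near the background. One of them, Tgfb1, was 331 and 187 CPM in KPPCN, against 176, 103 and 118 in KPPC (limma, adjusted p = 0.339). Of 14 basement membrane genes 10 were above 0 (median 0.46), of 13 contractile genes 12 (median 0.28) and of 11 adventitial genes 9 (median 0.72), with 4, 2 and 1 higher without overlap, of which the contractile and adventitial counts were at or under the background. Contractile genes above 0 numbered 7 of 12 in Serpinb2-led members (median 0.0058) and 4 of 13 in the other members (median -0.070). Of 10 genes of the plasminogen system other than rule genes 7 were above 0 (median 0.26). Serpine2 was 217 and 148 CPM in KPPCN, against 102, 34.4 and 34.6 in KPPC (limma, adjusted p = 0.281). In other fibroblasts 51.7% of all genes were above 0. There the count was 18 of 23 for hypoxia and glycolysis (median 0.22) and 11 of 14 for basement membrane (median 0.48). For adventitial genes it was 11 of 11 (median 0.86), so these shifts were not particular to the members. Fibrillar matrix had 18 of 23 above 0 there (median 0.19) and TGF-beta 9 of 15 (median 0.04). The plasminogen system had 5 of 10 (median 0.04) and contractile genes 2 of 13 (median -0.27).

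Proliferation genes lay on the other side. All 22 had a log2 difference below 0 (median -0.66), and 11 were lower in KPPCN without overlap, where 15.5% of all genes were. Top2a, the topoisomerase of dividing cells, was 48.7 and 29.3 CPM in KPPCN, against 61.3, 88.4 and 116 in KPPC (limma, adjusted p = 0.288). In other fibroblasts its difference was 0.09 on the log2 scale, and the genotype effects were not shown to differ (limma on the difference, adjusted p = 0.349). Of 24 cholesterol synthesis and uptake genes 20 were below 0 (median -0.18), with 1 higher without overlap and 0 lower, both below the background shares. In other fibroblasts 24 of 26 were below 0 (median -0.33), with 8 lower without overlap, where 1607 of 12081 genes were. The shift of this list was thus not particular to the members. Nsdhl itself was 14.7 and 5.51 CPM in KPPCN members, against 11.6, 13.4 and 10.2 CPM in KPPC members (log2 difference -0.26; limma, adjusted p = 0.715); whether the counted 3′ end lies outside the deleted stretch is not given in the sources used here, and the value checks nothing.

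The stromal cytokine list was split, with 8 of 18 genes above 0 and 10 below. Cxcl5 was 16.7 and 30.6 CPM in KPPCN, against 74.5, 134 and 107 in KPPC, and Saa3 was 3753 and 3806 CPM in KPPCN, against 7931, 8750 and 6858 in KPPC (limma, adjusted p = 0.163 and 0.191). Both are genes of the Serpinb2-led cells. Inside these cells the log2 difference of Saa3 was 0.025, but Cxcl5 was 114 and 66.9 CPM in KPPCN, against 153, 206 and 186 in KPPC. In the other members Saa3 was 922 and 2172 CPM in KPPCN, against 3031, 3614 and 3101 in KPPC. Cxcl5 was 0 and 17.1 CPM there in KPPCN, against 9.39, 33.0 and 25.1 in KPPC. Has2, a hyaluronan synthase, was 45.7 and 49.9 CPM in KPPCN, against 32.3, 21.6 and 17.7 in KPPC. Of 15 antioxidant and metallothionein genes 6 were lower without overlap and 2 higher, where 15.5% and 15.3% of all genes were; Sod2 was 116 and 171 CPM in KPPCN, against 296, 329 and 271 in KPPC. Among retinoid and stellate genes Fabp4 and Fabp5, carriers of fatty acids, were lower in KPPCN without overlap. The genes with a KPPCN excess are limited by the 429 tested genes without a UMI in some KPPC library, 79 of which count among the 1691 genes higher without overlap.

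**Figure D5:**
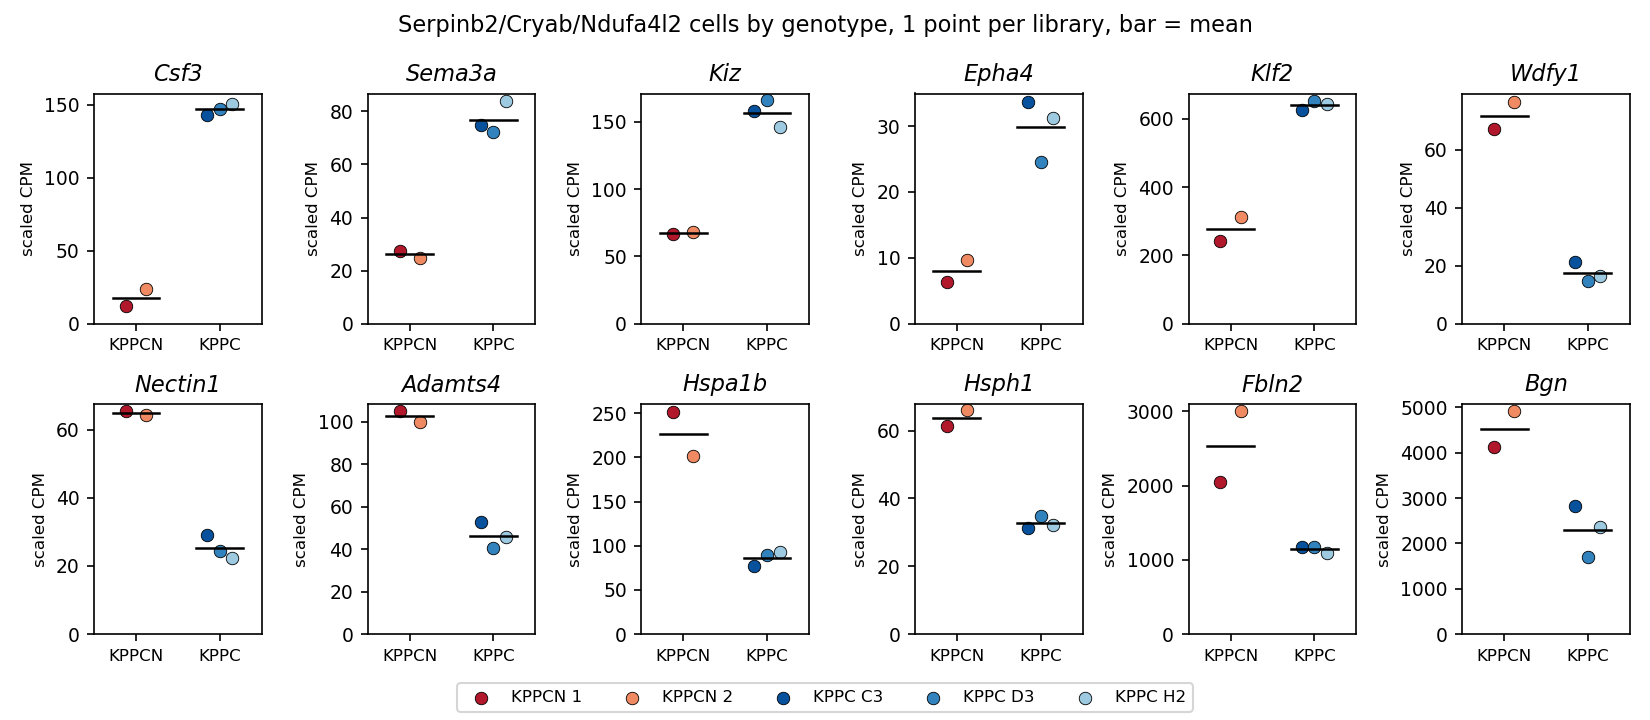
Scaled CPM of 12 genes in Serpinb2/Cryab/Ndufa4l2 cells, KPPCN left and KPPC right, 1 point per library, with the mean as a bar. Csf3 lies at 11.8 and 23.4 CPM in KPPCN and at 143 to 151 CPM in KPPC, and Wdfy1 at 67.3 and 76.4 CPM in KPPCN and at 14.7 to 21.5 CPM in KPPC.

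The genotype effect was then compared between the members and the other fibroblasts of the same libraries. In other fibroblasts 0 of 12081 genes were called (limma; 985 had an unadjusted p under 0.05), and for the difference of the 2 effects 0 of 11058 genes were called (0%; 863 had an unadjusted p under 0.05), with a lowest adjusted p of 0.0684. That lowest value belonged to Col11a1, a minor fibrillar collagen. It was 71.8 and 50.3 CPM in KPPCN members, against 28.3, 22.3 and 39.8 CPM in KPPC members, while other fibroblasts held 5.37 and 9.96 CPM in KPPCN, against 27.4, 29.1 and 59.0 in KPPC. The chemokine gene Cxcl9, listed at 0 in KPPC D3 and H2, and the RNA gene H19 followed (adjusted p = 0.071 each). H19 stood at 101 and 87.1 CPM in KPPCN members, against 97.4, 13.6 and 18.2 CPM in KPPC members, while other fibroblasts held 37.9 and 51.7 CPM in KPPCN, against 256, 149 and 164 in KPPC. With genes left out that had no UMI in any cell of some library, Col11a1 and H19 passed the threshold (limma, 2 genes called). Without KPPC C3 the count was 8.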

How the data were processed

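The deposited tables hold, per cell and gene, the natural log of 1 plus UMIs per 10000, made by the authors; exponentiated values summed to 10000 in every cell, and 100% came out as whole UMIs within 0.01. Per the submitters' processing notes, Seurat 3.0.2, Cell Ranger 2.1.0, R 3.5.1 and the build GRCm38 were used, in roles not given there. No cell was removed beyond the deposited tables, and no doublet caller was run. The 5 libraries were read from the columns; the codes C3, D3 and H2 could not be matched to numbered KPPC labels.

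UMIs were summed over the members of each library, scaled by a trimmed mean, and tested with limma 3.58.1 (R 4.3.3) on log2(CPM + 5), which understates changes of low genes, with weights for counting error and Benjamini-Hochberg adjustment at 0.05. The 12579 genes of both tables entered, filtered at 10 UMIs at the median total in at least 2 libraries and 15 UMIs in all. A count model was not used because the unit is a log. The difference between cell kinds was tested on per-library differences. Shares were compared by exact permutation. The fit was tested on simulated data. Alternatives were other scalings, filters, thresholds, subsets and left-out libraries.

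The members and gene lists were chosen with earlier results of these data known. Named genes were the markers and rule genes, the 15 highest ratios to other fibroblasts, the genes of lowest p per direction without overlap (up to 8), and up to 4 per list. Examples within lists, genes that split the members and the genes of the compared genotype effects were picked after their values were seen.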

Additional observations from a re-analysis of the deposited data

Results flagged for a closer look

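Stmn4, Gipr and Ccl5 stood out in data outside the comparisons: they are listed for the KPPCN libraries and not for the KPPC libraries, so no genotype comparison is possible. In the Serpinb2/Cryab/Ndufa4l2 cells Stmn4, a stathmin that binds tubulin, was at 25.5 CPM in KPPCN 1 and 33.8 CPM in KPPCN 2, against 5.04 and 10.3 in other fibroblasts. Gipr, the receptor of the incretin GIP, was at 15.7 CPM in KPPCN 1 and 56.6 CPM in KPPCN 2, against 1.05 and 4.39 in other fibroblasts. Ccl5, a chemokine of T cells, was at 22.6 CPM in KPPCN 1 and 153 CPM in KPPCN 2, against 39.4 and 77.6 in other fibroblasts. In KPPCN 2 the Ccl5 UMIs came from 7.94% of the members, so few cells carry the value, and no doublets were removed. The limit that a count of 0 allows was 1.47 CPM in KPPCN 1 and 1.03 CPM in KPPCN 2, and 235 of 18474 such genes lay above it in both.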

How the results depend on the processing

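The share of members kept its direction under every alternative, with differences of -1.19 to -7.43 points. The difference was smallest without KPPC D3, the library with the highest share, so the direction leans on that library. The cut at 5000 UMIs was not combined with leaving out KPPC D3. The count of genes called between genotypes in the members (1) was 0 with a pseudocount of 1 CPM, with no filter on low values, in cells of at least 5000 UMIs and in Cryab-led and Ndufa4l2-led members alone. It was 2 with at least 2 of the 3 genes detected, 12 with a threshold of 20 per 10000 and 0 to 3 without each library in turn (0 without KPPC C3, 2 without KPPCN 1 or KPPCN 2, 3 without KPPC D3 or H2). Genes with a UMI in every library gave 7. The libraries without Xist gave 86, or 36 with genes found in KPPC H2; the lone KPPC library is there assumed to vary like the others. Genotype and sex overlapped in part, and with this lone KPPC library they cannot be told apart. The count for the difference of genotype effects (0) was 2 with unscaled totals, 2 with genes found in every library, and 0 to 8 without each library (8 without KPPC C3). The difference in Serpinb2-led cells (-23.9 points) was -34.1 points with the threshold of 20, and -26.4 to -19.4 without each library. The hypoxia genes above other fibroblasts (21) numbered 0 in members without a Ndufa4l2 UMI. That split is by a rule gene that is a HIF target, and it leaves 9 cells in KPPCN 2. Without each library in turn Rasl11a ranged from -0.014 (without KPPCN 2) to 1.28 and Nsdhl from -0.69 to 0.22 (without KPPCN 2), and in Serpinb2-led members Ddit4 turned to -0.028, Saa3 to 0.025, Cnn1 to -0.047 and Inhba to -0.15 (log2). The cause of these shifts was not tested. Of 1074 values of 54 named genes, 1023 kept direction and side. The cut at 5000 UMIs, the splits by leading gene, the Xist and the gene-listing alternatives were chosen after seeing the data. No paired analysis was possible because the KPPC columns carry codes and not the replicate numbers of the labels. Depth limits KPPCN 1 most, with 37 of its 133 members under 5000 UMIs.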
